A study of Mus musculus with 6 samples.

Results

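The inflammatory cytokines and the NF-kB pathway were examined in mice with diet-induced obesity (DIO) through 10 genes, namely Il1b, Tnf, Il6, Ccl2, Ccl3, Ccl4, Cxcl10, Nfkbia, Ikbkb and Tlr4. Every probe whose gene name on the array was 1 of these symbols was taken, which gave 22 of the 56605 probes and 10 of the 37074 gene names. The data are 6 Agilent one-colour mouse arrays of RNA labelled as hypothalamus, each from a different mouse, with 3 arrays labelled GSK-J4 and 3 labelled vehicle. GSK-J4 inhibits the Kdm6 demethylases, enzymes that remove the repressive histone mark H3k27me3. All mice of both groups were male C57BL/6J DIO mice, fed from 6 weeks of age with a diet holding 60 kcal% fat for 16 weeks and kept under a light phase of 12 h. The treated mice received 30 mg kg−1 of GSK-J4 and the others vehicle (0 mg kg−1). The study's methods describe daily intraperitoneal injection at ZT 2 h (2 h after lights on). Tissue was taken at ZT 6 h (6 h after lights on). The series description places the tissue at 4 d, whereas the study's methods describe a course of 21 d, so the time of exposure is not settled. No lean mice are among these arrays, so obesity itself is not compared here.

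Tumour necrosis factor, interleukin 1β and bacterial lipopolysaccharide act on their receptors, of which Tlr4 senses lipopolysaccharide, to switch on the IκB kinase complex. This complex marks the inhibitor IκBα, the product of Nfkbia, for destruction, so that the transcription factor NF-kB enters the nucleus and turns on cytokines, chemokines and Nfkbia itself. In the hypothalamus of obese rodents this pathway is known to be active in neurons, astrocytes and microglia, and it is known to blunt the responses to leptin and insulin.

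Most of the cytokines and chemokines were at or near the background of the arrays, whereas the signalling genes were measured on all of them. Of the 13 probes for the 7 cytokine and chemokine genes, 1 was well above background on all 6 arrays and 8 were on none. Of the 9 probes for Nfkbia, Ikbkb and Tlr4, 6 were well above background on all 6 arrays and 3 on none. Here "well above background" is the flag that the scanner software gives to each spot. Il1b, Il6, Ccl3 and Cxcl10 had no probe that reached it on all 3 arrays of either group, and so the group comparison covers 9 probes of 6 genes. Of these 9, limma called 1 higher (Ccl4) and 1 lower (1 of 3 probes of Ikbkb) in the GSK-J4 group at a Benjamini-Hochberg adjusted p of at most 0.05. Across all 34443 probes tested the same rule called 8.38% higher and 8.4% lower. Ccl4 passed the filter only through the GSK-J4 arrays, where it was high, so its call is not read against that share. The median difference was −0.03 (log2, GSK-J4 minus vehicle) over the 9 probes and 0.02 over all probes tested.

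**Figure D1:**
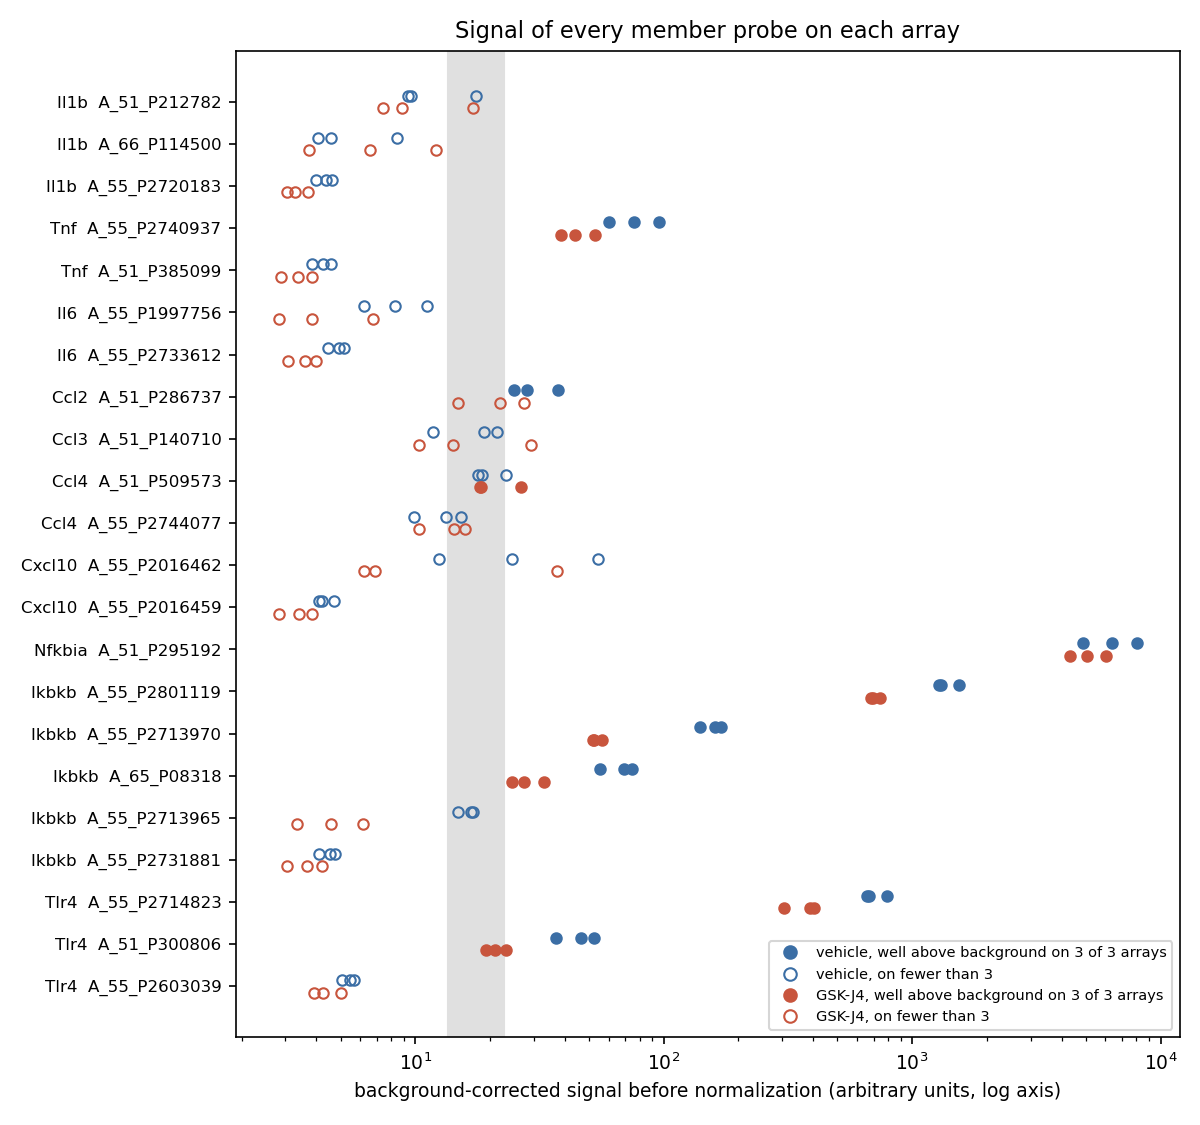
Background-corrected signal before normalization (arbitrary units, log axis) of all 22 probes, with 1 point per array, blue for vehicle and red for GSK-J4; filled points mark probes well above background on 3 of 3 arrays of that group, and the grey band spans the lowest well-above-background signals of the 6 arrays, 13.5 to 22.8. Both Il6 probes, all 3 Il1b probes and 1 of 2 Tnf probes lie in or below the band, and the Nfkbia probe lies far to its right.

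Some properties of the arrays bear on every value. All 3 vehicle arrays lie on 1 slide and in 1 scan and all 3 GSK-J4 arrays on another, so slide and treatment cannot be told apart. The GSK-J4 arrays were dimmer, with a median raw difference of −0.88 (log2) over the probes tested, which quantile normalization removed. The lowest signal called well above background was 19.3 to 22.8 on the vehicle arrays and 13.5 to 18.2 on the GSK-J4 arrays. Calls also followed the GC content of the probe: limma called 2.35% of the probes in the lowest GC tertile higher and 14.1% lower, compared with 19.9% and 1.63% in the highest tertile. Whether these differences have a part in a given result was not tested. Leaving out any 1 of the 3 vehicle arrays ended both calls among the 9 probes (each had an unadjusted p below 0.05 in limma), and left at most 5 probes called higher and 23 called lower on the whole array. With 3 arrays in each group, 0.1 is the smallest two-sided p that an exact permutation test can reach.

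The tissue label was checked against markers. Of 11 genes known for their expression in the hypothalamus, 5 were kept (Agrp, Npy, Pomc, Hcrt and Oxt), and Pmch, Avp and Trh were well above background on 3 of 6 arrays each. The 5 kept genes all had positive differences, on probes with 48.3% to 58.3% GC. Npy (0.42, limma adjusted p = 0.0241) and Pomc (0.86, adjusted p = 0.0212) were called higher in the GSK-J4 group. Over all genes tested 9% were called higher, and 22.3% of those with at least 50% GC. With the GC trend removed within each array only Pomc was called higher. The summed signal of the 5 kept genes was 3164 to 3365 on the vehicle arrays and 4291 to 4921 on the GSK-J4 arrays. The part of this difference in the results below was not tested. The transcription factors Sim1, Nkx2-1 and Otp, which define hypothalamic territories, were well above background on none of the 6 arrays. In contrast, Emx1, Neurod6, Tbr1 and Neurod2, known from the cerebral cortex and hippocampus and chosen for this check after values were seen, were well above background on all 6 arrays. They came from a list of 18 markers of brain regions, of which 14 were kept. Zic1, Tcf7l2, Cbln1 and Ppp1r1b of the same list were also well above background on all 6 arrays. Sim1 was read by 1 probe, with 23.3% GC. The markers are therefore mixed. The defining transcription factors go against the label and the 5 kept genes do not, so the region is not settled. The samples are called brain tissue labelled as hypothalamus. On 1 vehicle array (replicate 1) the summed signal of 6 choroid plexus markers was 106446, compared with 2644 to 11857 on the other arrays.

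Il1b encodes interleukin 1β, which is made as an inactive precursor and cut by caspase 1. Its 3 probes were well above background on none of the 6 arrays. The probe A_51_P212782 (chr2:129190347-129190406, minus strand, mm9) read 17.6, 9.38 and 9.65 on the vehicle arrays and 17.1, 7.44 and 8.87 on the GSK-J4 arrays, in units of raw signal. In each group 1 array (replicate 1) stood above the others, and the groups overlapped. A second probe, shown in full because it lies in a part of the gene that the main transcript is known to translate, read between 3.73 and 12.1 over the 6 arrays:

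Il1b A_66_P114500 (chr2:129190880-129190939, minus strand, mm9): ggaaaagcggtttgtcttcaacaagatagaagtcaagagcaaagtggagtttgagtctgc

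The probe A_55_P2720183 read between 3.06 and 4.601. With these values no fold change can be given for Il1b in either direction.

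Il6 encodes interleukin 6, a cytokine that signals through the shared receptor chain gp130. Its probes on chromosome 5, A_55_P1997756 and A_55_P2733612, lie 148 bases apart and were well above background on none of the 6 arrays. The first read 6.23, 11.1 and 8.32 on the vehicle arrays and 6.78, 3.82 and 2.82 on the GSK-J4 arrays, and the second between 3.06 and 5.14 over all 6. The groups overlapped for the first probe, and the depth of these arrays does not allow a statement on a change of Il6.

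Tnf encodes tumour necrosis factor, which acts on the receptors Tnfrsf1a and Tnfrsf1b. The probe A_55_P2740937 (chr17:35336967-35337026, minus strand, mm9) was the only 1 of the 13 cytokine and chemokine probes to be well above background on all 6 arrays. It gave 5.42, 5.95 and 5.79 on the vehicle arrays and 6.24, 5.89 and 5.90 on the GSK-J4 arrays (normalized log2 signal). The groups overlapped, since only GSK-J4 replicate 1 was above the highest vehicle array. The difference of 0.29 ± 0.17 (SE, n = 3 per group; 95% interval −0.14 to 0.71) did not pass the test (limma, adjusted p = 0.28). The second Tnf probe, A_51_P385099, lies 112 bases away and was well above background on no array, with raw signals of 2.88 to 4.57.

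The chemokines are secreted proteins that draw leukocytes along a gradient. Ccl4, also known as MIP-1β, and its neighbour Ccl3 (MIP-1α) are typical products of activated microglia and macrophages. The probe A_51_P509573 for Ccl4 gave 3.67, 3.92 and 3.78 on the vehicle arrays and 4.68, 5.20 and 4.83 on the GSK-J4 arrays (normalized log2 signal). All 3 GSK-J4 values were above all 3 vehicle values. The difference in normalized log2 signal was 1.11 ± 0.15 (SE, n = 3 per group; limma, adjusted p = 0.0173; exact permutation p = 0.1, two-sided, the smallest possible). No fold change is given, since 2 of the 3 vehicle arrays were not well above background. Non-overlapping groups were found for 2 of the 9 kept probes (Ccl4 and 1 Ikbkb probe) and for 45.6% of all probes tested. Ccl4 was kept only through the GSK-J4 arrays, so its lack of overlap is not read against that share.

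The call for Ccl4 rests on signals close to background, which were almost the same on both slides before normalization. The probe was well above background on 1 of 3 vehicle arrays and on 3 of 3 GSK-J4 arrays. Its raw signals were 17.8, 23.3 and 18.6 on the vehicle arrays and 18.2, 26.7 and 18.3 on the GSK-J4 arrays, a ratio of 1.05 between the geometric means. After quantile normalization the lowest level that counted as well above background was 3.79 to 3.90 on the vehicle arrays and 4.39 to 4.64 on the GSK-J4 arrays, so that Ccl4 sat at this limit in the former and above it in the latter. In all, 185 probes were kept through the GSK-J4 arrays alone, as Ccl4 was, and of these 34.1% were called higher and 0 lower. With a filter on all 6 arrays Ccl4 was not tested. With normexp background correction the difference of Ccl4 was 0.30 (adjusted p = 0.0331), and without each of the vehicle arrays in turn the adjusted p was 0.0651 to 0.0734 in limma.

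**Figure D2:**
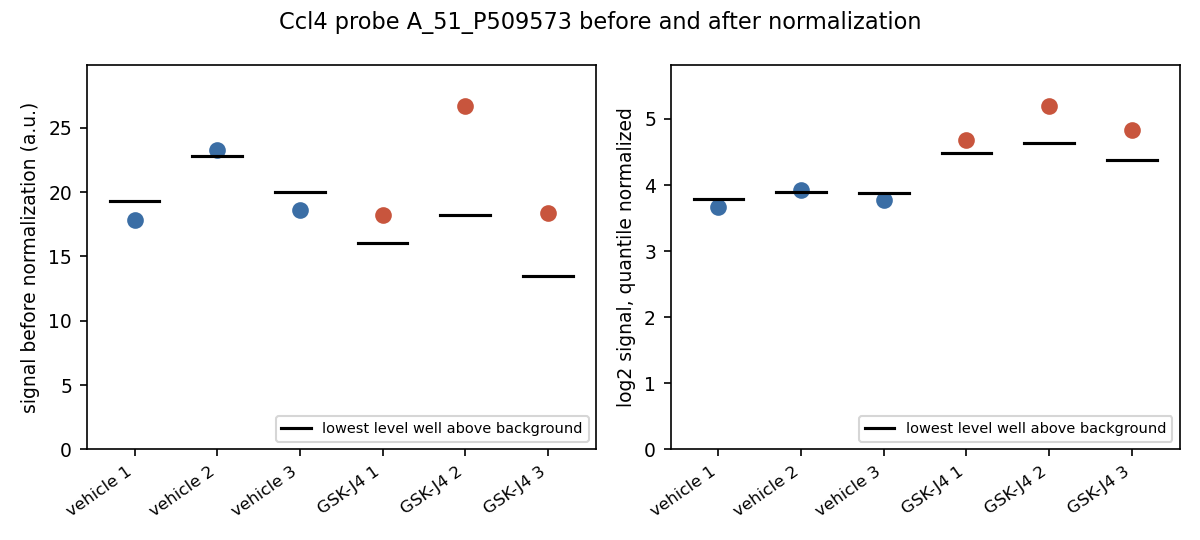
Ccl4 probe A_51_P509573 on each of the 6 arrays as raw signal (left, arbitrary units) and as normalized log2 signal (right), with blue points for vehicle, red points for GSK-J4 and a black line at the lowest level called well above background on that array. The raw signals of both groups cover much the same range, 17.8 to 23.3 and 18.2 to 26.7, whereas the normalized values do not overlap.

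A second Ccl4 probe, A_55_P2744077, shares 46 bases with the first, so the pair is not independent. It was well above background on none of the 6 arrays and read 9.87, 13.3 and 15.2 on the vehicle arrays and 15.9, 14.3 and 10.4 on the GSK-J4 arrays as raw signal. The shared stretch holds the letters ATTTA, the core of the AU-rich elements known to shorten the life of cytokine mRNAs, here in capitals:

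Ccl4 A_51_P509573, first 30 bases (chr11:83478052-83478081, plus strand, mm9): tattATTTAtgttttagttataggacgcgt

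ATTTA, searched as written on the strand of the probe, was found in 4 of the 22 probes (both Ccl4 probes and a pair of Ikbkb probes), or 18.2%, and in 8.08% of all 56605 probes. The match describes these 60 bases only.

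Ccl3 has 1 probe, A_51_P140710 (chr11:83461358-83461417, minus strand, mm9), which was well above background on 1 vehicle array and 1 GSK-J4 array. Its raw signals were 11.7, 18.9 and 21.3 on the vehicle arrays and 29.2, 14.1 and 10.3 on the GSK-J4 arrays. The highest value was that of GSK-J4 replicate 1, and the raw signals of the groups overlapped. After normalization it gave 3.10, 3.64 and 3.97 on the vehicle arrays and 5.37, 4.27 and 4.01 on the GSK-J4 arrays (log2), without overlap, but most of these values lay below the limit of well above background and the probe was not tested.

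Ccl2 (MCP-1), the ligand of Ccr2 that recruits monocytes, was well above background on 3 of 3 vehicle arrays and 2 of 3 GSK-J4 arrays. Its probe A_51_P286737 (chr11:81850650-81850709, plus strand, mm9) gave 4.74, 4.01 and 4.37 on the vehicle arrays and 4.37, 5.23 and 5.09 on the GSK-J4 arrays (normalized log2 signal). The groups overlapped, with GSK-J4 replicate 1 among the vehicle values. The difference of 0.52 ± 0.29 (SE, n = 3 per group; 95% interval −0.18 to 1.23) did not pass the test (limma, adjusted p = 0.239).

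Cxcl10, an interferon-induced ligand of Cxcr3, gave signals that varied widely within both groups. The probe A_55_P2016462 (chr5:92775781-92775840, minus strand, mm9) was well above background on 1 array of each group, and its raw signals were 54.3, 24.4 and 12.4 on the vehicle arrays and 6.24, 37.2 and 6.87 on the GSK-J4 arrays. Vehicle replicate 1 and GSK-J4 replicate 2 were the highest, and the groups overlapped. The former is also the array with high choroid plexus markers, and whether this bears on Cxcl10 was not tested. The second probe, A_55_P2016459, was well above background on no array.

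Nfkbia, whose product IκBα holds NF-kB in the cytoplasm and which NF-kB itself switches on, was well above background on all 6 arrays. Its only probe spans 496 bases of the genome with 60 bases of sequence and therefore crosses an intron, so it reads spliced RNA. The sequence is shown because it covers the acidic tail of IκBα. Read in steps of 3 from the first base, 11 of its 20 codons are GAG, GAA, GAT or GAC (acidic residues, in capitals):

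Nfkbia A_51_P295192 (chr12:56590945-56591440, minus strand, mm9): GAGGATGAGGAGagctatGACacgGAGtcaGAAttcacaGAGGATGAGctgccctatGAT

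The probe gave 12.37, 12.43 and 11.95 on the vehicle arrays and 12.83, 12.41 and 12.79 on the GSK-J4 arrays (normalized log2 signal). GSK-J4 replicates 1 and 3 were above all vehicle arrays and replicate 2 was among them. The difference of 0.43 ± 0.18 (SE, n = 3 per group), a ratio of 1.35 with a 95% interval of 0.993 to 1.83, did not pass the test (limma, adjusted p = 0.144; exact permutation p = 0.2, two-sided). The probe holds 50% GC, and with the GC trend removed within each array the difference was 0.21 (limma, adjusted p = 0.425).

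Ikbkb encodes IKKβ, the catalytic kinase of the IκB kinase complex. It has 5 probes on chromosome 8, spread over the gene, and 3 of them were well above background on all 6 arrays. The probe for the RefSeq transcript, A_55_P2801119, gave 9.99, 10.01 and 9.98 on the vehicle arrays and 9.78, 9.92 and 9.995 on the GSK-J4 arrays (normalized log2 signal). The groups overlapped through GSK-J4 replicate 3, and the difference of −0.09 ± 0.08 (SE, n = 3 per group; 95% interval −0.29 to 0.11) did not pass the test (limma, adjusted p = 0.45).

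The probe A_55_P2713970, which the array assigns to the Ensembl transcript ENSMUST00000126439, was lower in the GSK-J4 group. It gave 6.83, 6.77 and 6.67 on the vehicle arrays and 6.20, 6.27 and 6.35 on the GSK-J4 arrays (normalized log2 signal), and the groups did not overlap. The difference was −0.48 ± 0.08 (SE, n = 3 per group; 95% interval −0.68 to −0.28), or 1.40-fold lower (limma, adjusted p = 0.0233; exact permutation p = 0.1, two-sided). Without GSK-J4 replicate 1 the adjusted p was 0.0538, and without each of the vehicle arrays it was 0.0741 to 0.0886. The probe lies 32.4 kb upstream of the first along the minus strand, and the start of each is shown because 1 probe passed the test and the other did not:

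Ikbkb A_55_P2801119, first 30 bases (chr8:23769865-23769894, minus strand, mm9): ataggcaggtatATTTAattagagaatacg

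Ikbkb A_55_P2713970, first 30 bases (chr8:23802358-23802387, minus strand, mm9): aaggagactctttcttcaaatctgagatca

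The probe A_65_P08318 was designed on another RefSeq transcript and crosses an intron, with 60 bases spread over 235 bases of the genome:

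Ikbkb A_65_P08318 (chr8:23776092-23776326, minus strand, mm9): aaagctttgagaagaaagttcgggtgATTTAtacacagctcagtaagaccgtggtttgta

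It gave 5.63, 5.60 and 5.33 on the vehicle arrays and 5.11, 5.49 and 5.41 on the GSK-J4 arrays (normalized log2 signal). The groups overlapped, and the difference was −0.18 ± 0.14 (SE, n = 3 per group; limma, adjusted p = 0.377). The differences of the first and second probes were 0.39 ± 0.05 apart (SE, n = 3 per group). The exact permutation test gave p = 0.1 (two-sided, the smallest possible) and 0.2 after adjustment over the 4 pairs of probes of 1 gene. With 3 arrays in each group this test cannot reach 0.05, so it cannot decide whether these probes responded differently. The remaining Ikbkb probes, A_55_P2713965 and A_55_P2731881, were well above background on none of the 6 arrays. The former read 14.9, 17.1 and 16.7 on the vehicle arrays and 6.15, 4.56 and 3.33 on the GSK-J4 arrays as raw signal, all below the limit of their array. After normalization it gave 3.42, 3.49 and 3.63 on the vehicle arrays and 3.02, 2.45 and 2.08 on the GSK-J4 arrays (log2), without overlap. The probe was not kept.

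Tlr4 encodes the receptor for lipopolysaccharide, which works with Ly96 and Cd14. Its probe for the Ensembl transcript ENSMUST00000107365, A_55_P2714823 (chr4:66591199-66591258, plus strand, mm9), gave 8.97, 9.03 and 8.98 on the vehicle arrays and 9.05, 9.02 and 8.84 on the GSK-J4 arrays (normalized log2 signal). The groups overlapped, and the difference was −0.03 ± 0.08 (SE, n = 3 per group; 95% interval −0.23 to 0.18; limma, adjusted p = 0.848). This probe lies 87.4 kb downstream of the nearest probe for the RefSeq transcript, so it cannot be taken without doubt as a reading of the receptor's own mRNA.

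The RefSeq probe A_51_P300806 gave 4.72, 4.90 and 5.25 on the vehicle arrays and 4.77, 4.84 and 5.16 on the GSK-J4 arrays (normalized log2 signal). The groups covered nearly the same range, with a difference of −0.03 ± 0.18 (SE, n = 3 per group; 95% interval −0.46 to 0.40; limma, adjusted p = 0.915). A second RefSeq probe, in the part of Tlr4 known to encode the leucine-rich repeats that face the outside of the cell, was well above background on none of the 6 arrays and is shown as the one reading of that part:

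Tlr4 A_55_P2603039 (chr4:66500344-66500403, plus strand, mm9): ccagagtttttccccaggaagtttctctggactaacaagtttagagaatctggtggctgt

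It read between 3.92 and 5.67 as raw signal.

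**Figure D3:**
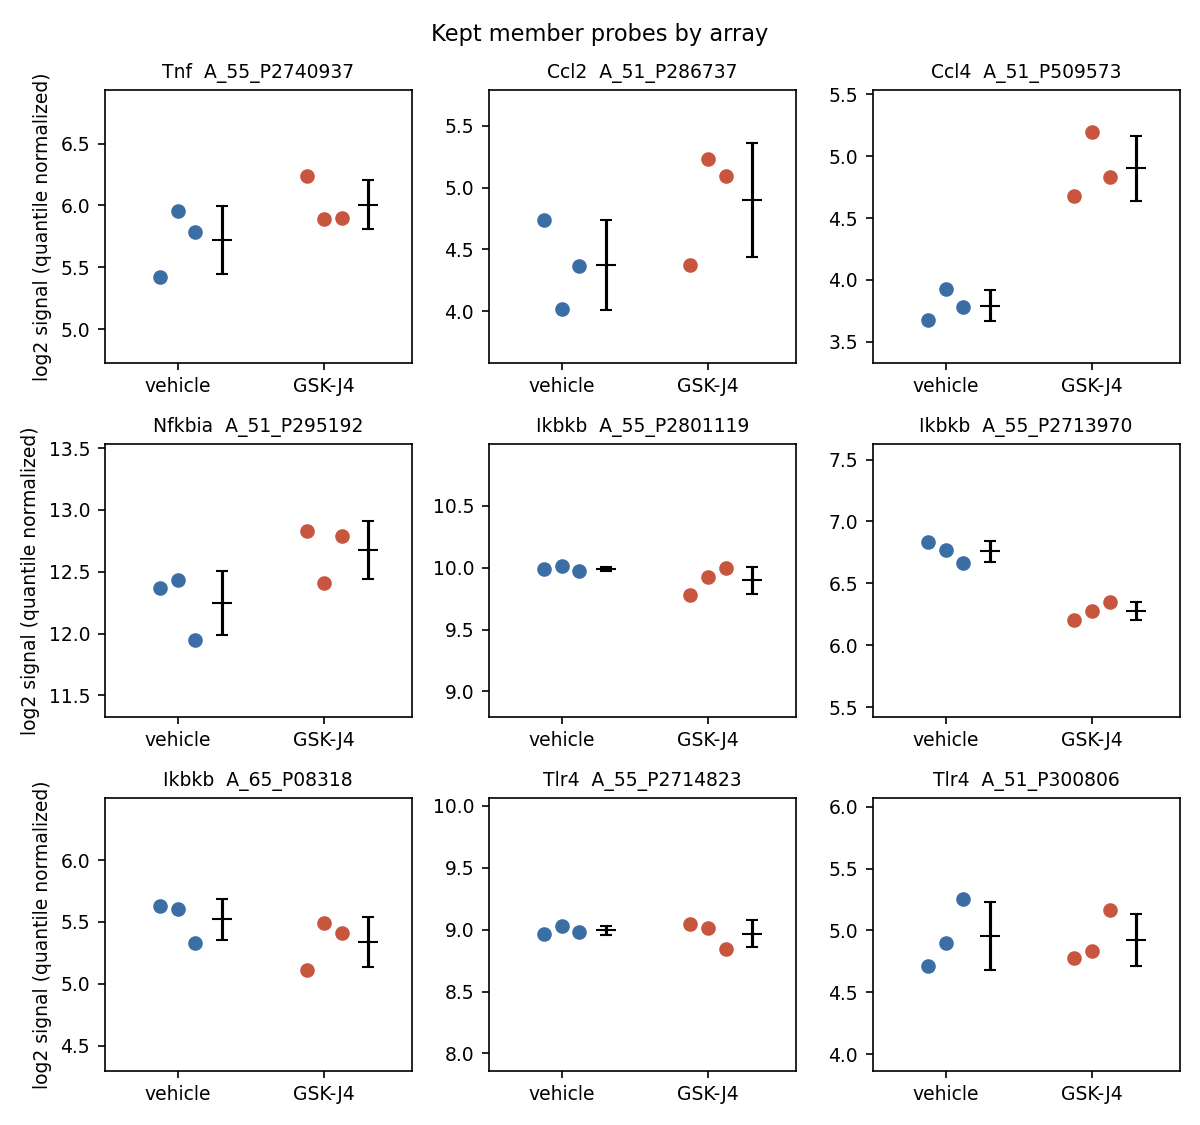
Normalized log2 signal of the 9 kept probes, 1 panel per probe, with 1 point per array (blue vehicle, red GSK-J4) and the mean ± SD of each group (n = 3) in black; every panel spans 2.2 log2 units. The groups do not overlap for Ccl4 and for Ikbkb A_55_P2713970, and they overlap in the other 7 panels.

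For the 4 genes with a probe well above background on all 6 arrays, the genes with the most similar pattern were listed by Pearson correlation over the 6 arrays among 20201 genes. For Tnf these were BC010981, ENSMUST00000117491 and an unnamed transcribed region on chromosome 12, for Nfkbia they were Capn1, Sp8 and Sept5, for Ikbkb (A_55_P2801119) Cpne1, ENSMUST00000122085 and Cdk9, and for Tlr4 (A_55_P2714823) Sprr2a2, Rbp3 and Pcdhb13. The correlations were between 0.988 and 0.998, with 6 points that share the slide of their group, and they are a description of these arrays only.

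The wider pathway was followed in 88 further genes, of which 69 had a kept probe. Of these 69, limma called 10 higher (14.5%) and 1 lower (1.45%) in the GSK-J4 group, compared with 9% and 7.77% of the 22117 genes tested. These counts rest on 1 probe per gene, the one with the highest mean. Over all 122 kept probes of these genes, 16 were called higher (13.1%) and 9 lower (7.38%), against the 8.38% and 8.4% of all probes given above. The median difference was 0.10 (log2) over the 69 genes and 0.04 over all genes tested. The groups did not overlap for 34 of the 69 genes (49.3%), compared with 45.5% of all genes. Without any 1 of the 3 vehicle arrays limma called none of the pathway genes in either direction (16 to 18 higher and 5 to 6 lower at an unadjusted p below 0.05). The difference of all 10 genes was positive in each of these fits. They were picked by their calls on the same arrays, so these signs add no support.

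Among the 5 NF-kB subunits none passed the test in limma (2 at an unadjusted p below 0.05). Nfkb1, which encodes p105 and p50, gave 10.26, 10.27 and 10.27 on the vehicle arrays and 9.68, 9.91 and 9.26 on the GSK-J4 arrays (normalized log2 signal; difference −0.65, limma adjusted p = 0.053). Nfkb2, the precursor of p52, had a difference of 0.51 (adjusted p = 0.0699), while its other kept probe was higher by 0.84 (adjusted p = 0.0144 over all probes). Of the 7 inhibitors and brakes of the pathway, 2 were higher on the probe with the highest mean. Nfkbib, which encodes IκBβ, was higher by 0.35 (log2, adjusted p = 0.04), and Tnip1, a partner of the ubiquitin-editing enzyme A20, by 0.34 (adjusted p = 0.036). Over all 12 kept probes of these genes limma called 4 higher, among them a Cyld probe (0.46, adjusted p = 0.0186). It called 1 lower, of Nfkbiz (−0.91, adjusted p = 0.022). The Cyld probe with the highest mean was not called (−0.28).

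Of the 9 kept pathway kinases and their partners, 1 was higher and 1 was lower on the probe with the highest mean. Over all 19 kept probes of these genes limma called 1 higher (Map3k14, 0.90, adjusted p = 0.0145). It called 2 lower (Chuk, −0.66, adjusted p = 0.0416, and Tbk1), and Tab1 was not called among all probes (adjusted p = 0.0545). Tab1, which activates the kinase Tak1, was higher by 0.30 (log2, adjusted p = 0.0492). Tbk1, a kinase of the interferon branch, gave 9.85, 10.16 and 10.10 on the vehicle arrays and 9.43, 9.42 and 9.52 on the GSK-J4 arrays (normalized log2 signal), without overlap of the groups, and fell by 0.58 on the log2 scale (adjusted p = 0.0238). The adaptors held 2 calls among 10 genes on the probe with the highest mean. Ticam1 (TRIF), which links Tlr3 and Tlr4 to the interferon branch, gave 7.52, 7.48 and 7.59 on the vehicle arrays and 8.23, 8.11 and 8.32 on the GSK-J4 arrays (difference 0.69, adjusted p = 0.0128). Traf2, an adaptor of the tumour necrosis factor receptors, was higher by 0.51 (adjusted p = 0.0311). Over all 20 kept adaptor probes limma called 3 higher (Ticam1, Traf2 and a Traf6 probe, 0.85, adjusted p = 0.0344). It called 1 lower, of Irak2 (−0.49, adjusted p = 0.0363).

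Among 13 kept receptors and co-receptors, 1 was called on the probe with the highest mean. Over all 22 kept probes of these genes limma called 2 higher (Tlr3 and Cd14, the latter by 0.51, adjusted p = 0.0473). It called 3 lower, namely 1 of Tlr3 and Il1rap A_52_P467232 (−1.17, adjusted p = 0.0148) and A_55_P2041432 (−0.31, adjusted p = 0.0478). The Il1rap probe with the highest mean was not called (−0.19). Tlr3, a sensor of double-stranded RNA, was higher by 0.71 (log2, adjusted p = 0.0207) on its probe with 41.7% GC, whereas its other kept probe, with 26.7% GC, was lower (−0.81, adjusted p = 0.0197 over all probes), so no direction can be given for the gene. On the probe with the highest mean, Lbp, the lipopolysaccharide-binding protein, had the largest difference of the list (−0.85, adjusted p = 0.589). This difference came from the 1 vehicle array with high choroid plexus markers (10.15, compared with 6.40 to 7.08 on the other arrays).

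Of the 9 kept other cytokines and chemokines, 3 were higher and none was lower. Ccl12 (MCP-5), a chemokine near Ccl2 in sequence and position, gave 5.21, 5.04 and 4.98 on the vehicle arrays and 5.55, 6.13 and 5.98 on the GSK-J4 arrays (normalized log2 signal; difference 0.81, adjusted p = 0.0306). Tgfb1, an anti-inflammatory growth factor, was higher by 0.64 (adjusted p = 0.0237), and Il34, a ligand of Csf1r on which microglia depend, by 0.39 (adjusted p = 0.0245), although the other kept Il34 probe had a difference of 0.09 (adjusted p = 0.478 over all probes). The 12 kept target genes of NF-kB held no call in limma on the probe with the highest mean (3 at an unadjusted p below 0.05), while 1 further probe of Bcl2l1, which encodes a survival factor, was higher by 0.52 (adjusted p = 0.0266 over all probes). Ptgs2, which encodes cyclooxygenase 2, gave 9.24, 9.42 and 9.17 on the vehicle arrays and 8.07, 8.77 and 8.64 on the GSK-J4 arrays. Its difference was −0.78 (limma, adjusted p = 0.0502 over all genes). Adjusted over all probes the p was 0.0496, so by that rule the Ptgs2 probe was called lower. Socs3, a brake on cytokine and leptin signalling, had a difference of 0.62 (adjusted p = 0.0518).

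Among 4 kept inflammasome genes, Pycard (ASC), the adaptor that joins sensors to caspase 1, was higher by 0.58 (log2, adjusted p = 0.0148) on a probe with 53.3% GC, while its other kept probe, with 45% GC and well above background on 4 of 6 arrays, was lower (−0.84, adjusted p = 0.028 over all probes), so the direction depends on the probe. Casp1 gave 7.33, 7.14 and 8.08 on the vehicle arrays and 9.51, 7.53 and 9.17 on the GSK-J4 arrays (normalized log2 signal; difference 1.22, adjusted p = 0.18), with overlapping groups. Gsdmd, which forms the membrane pore, had a difference of 0.70 (adjusted p = 0.139).

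**Figure D4:**
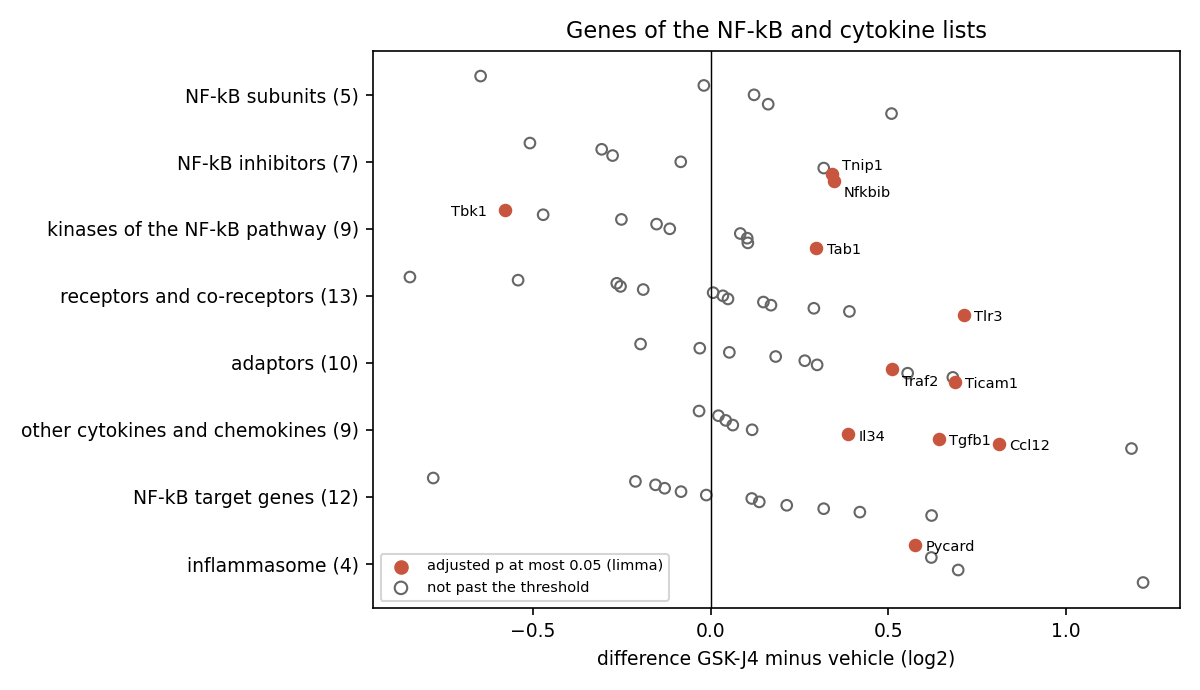
Difference GSK-J4 minus vehicle (log2, horizontal axis) of the 69 kept pathway genes, grouped by list with the number of kept genes in brackets; filled red points have a limma adjusted p of at most 0.05 and open points do not. The 10 genes called higher come from 6 lists, and Tbk1 is the only gene called lower, on the probe with the highest mean of each gene.

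The calls of the pathway genes moved with the GC content of their probes. Of the 12 kept genes whose probe had at least 50% GC, 7 were called higher and 1 had a negative difference, whereas of the 32 with at most 40% GC none was called higher and 19 had a negative difference. Over all genes tested, 22.3% of those with at least 50% GC and 3.1% of those with at most 40% GC were called higher. With the GC trend removed within each array, 3 of the 10 genes stayed called higher, namely Ticam1 (0.45), Pycard (0.33) and Ccl12 (0.79).

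**Figure D5:**
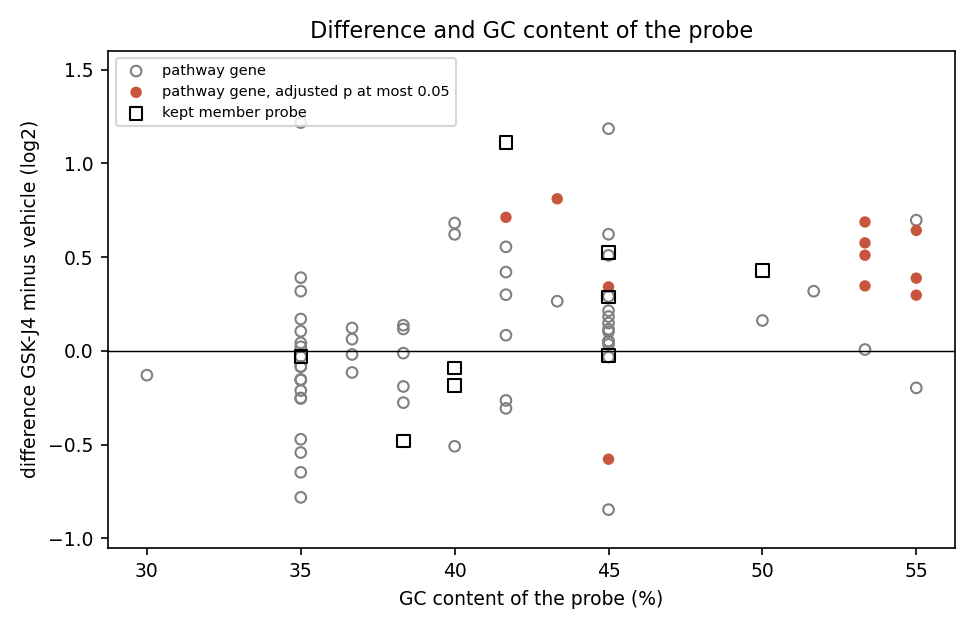
Difference GSK-J4 minus vehicle (log2) against the GC content of the probe (%), with circles for the 69 kept pathway genes, filled red where the limma adjusted p is at most 0.05, and squares for the 9 kept probes of the 10 genes. Of the 12 circles at 50% GC or more, 7 are filled, and of the 32 at 40% or less none is.

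Markers of the cells that make these cytokines were set beside the values. All 16 microglia markers were kept, with 6 called higher (Cd68, C1qa, C1qb, C1qc, Fcrls and Sall1), 1 called lower (Ptprc) and a median difference of 0.30 (log2), compared with the 9% higher, 7.77% lower and median of 0.04 over all genes. The probes of C1qa, C1qb and Fcrls hold 55% GC, and with the GC trend removed 3 markers (Cd68, C1qc and Sall1) were called higher and 0 lower. Of the 16 markers 12 had a positive and 4 a negative difference. The groups did not overlap for 10 of the 16, compared with 45.5% of all genes. The summed signal of the 15 markers read on every array was 47675 to 51166 on the vehicle arrays and 48678 to 51788 on the GSK-J4 arrays, so the sums overlapped. Bright markers weigh most in this sum, and the brightest, Itgam (−0.12) and Siglech (−0.26), had negative differences. Of 10 markers of blood myeloid cells and border macrophages 7 were kept and limma called none (2 at an unadjusted p below 0.05; summed signal 12563 to 13245 and 13681 to 16617), with Ccr2, Cd163 and Ly6g not kept. Of 6 lymphocyte markers only Cd3e was kept, and it was not called (summed signal 22.4 to 131.8 and 156.4 to 211). The 6 endothelial and the 6 astrocyte markers were all kept without a call in limma on the probe with the highest mean (0 and 3 at an unadjusted p below 0.05). Among all their kept probes, 1 of 9 endothelial probes (Ly6c1, 0.42) and 2 of 14 astrocyte probes (both of Gja1, 0.54 and 0.57) were called higher and 1 astrocyte probe lower (Slc1a3, −0.76). These lists had summed signals of 21000 to 22062 and 45333 to 48783 on the vehicle arrays and 22319 to 29758 and 49334 to 52948 on the GSK-J4 arrays. In tissue RNA a change in the number of cells and a change of RNA per cell cannot be told apart, and the part of these markers in the values of the cytokines was not tested.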

How the data were processed

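Total RNA of 6 mice was hybridized to Agilent SurePrint G3 arrays in 1 colour. Feature Extraction (10.7.1.1) gave the background-corrected intensities that the authors deposited, with flags for each spot. The deposited table of log2 values, quantile normalized in GeneSpring 14.8 per the methods, served as an alternative. Control and outlier spots were left out, log2 intensities were averaged per probe, and the arrays were quantile normalized. A probe was kept where every array of a group, of either or both groups, was well above background (34443 probes). For gene lists the probe with the highest mean per gene was taken. Groups were compared with limma 3.58.1 (lmFit and eBayes, R 4.3.3, two-sided), adjusted by Benjamini-Hochberg over all kept probes, or over all 22117 genes for lists, with a threshold of 0.05. Single probes were also tested by exact permutation of the array labels (20 orders). The test was tested on simulated data. Coordinates and probe sequences are those of the deposited files (mm9). The 10 genes and the gene lists were chosen with earlier results of these data known. Named genes are all members with every probe, all called pathway genes and, in lists with fewer than 2, the 2 largest differences measured on all 6 arrays. Alternatives were other scalings, filters, tests and left-out arrays. The number of arrays limits the precision.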

Additional observations from a re-analysis of the deposited data

How the results depend on the processing

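Among the 9 kept probes the number called higher was 1 and the number called lower was 1. Without filter on dim probes and with the flag for positive and significant signal 2 were called higher (both Ccl4 probes), and with probes well above background on all 6 arrays 0 were. At a fold of 1.5 and an unadjusted p of at most 0.05, 0 were called lower. Without each array in turn the count called higher was 0 to 1 and that called lower 0 to 1. Of the pathway genes 10 were higher and 1 lower. Called higher were 5 without filter and 3 with the GC trend removed; called lower were 2 with scaling to the 75th percentile, 4 with normexp, 3 with the filter on all 6 arrays, 4 with the mean of the probes of a gene and 2 at the fold of 1.5. With every kept probe of these genes counted, an alternative chosen after seeing the data, 16 probes were higher and 9 lower. Without each array in turn, 0 to 9 were higher and 0 to 3 lower. The methods' t-test without equal variances called 0 members and 0 pathway genes after adjustment in both directions (unadjusted, 1 member probe higher and 1 lower, and 16 pathway genes higher and 4 lower). Reversed signs were those of Tlr4 A_51_P300806 with the GC trend removed (0.16) and without single arrays (−0.15 to 0.12), of Tlr4 A_55_P2714823 without single arrays (−0.064 to 0.039), of Tlr3 with the GC trend removed (−0.35) and with the mean of the probes (−0.048), and of Pycard with the mean of the probes (−0.13); the causes were not tested. With the replicate number as a block limma called 0 member probes, 0 pathway genes and 0 of all probes in either direction (unadjusted, 1 member probe higher and 1 lower, and 20 pathway genes higher and 7 lower). Arrays of the same number correlated in their deviations at 0.01, 0.03 and 0.08, so the numbers are not taken as pairs. The deposited log2 table gave the same 4 counts. Signals near background limit what can be said of Il1b, Il6, Ccl2, Ccl3, Ccl4 and Cxcl10.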
